A study of Mus musculus with 12 samples.

Results

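A set of 9 genes that mark monocytes and macrophages was followed in mouse liver RNA: Ly6c2, Ccr2, Cx3cr1, Itgam, Csf1r, Mpeg1, Cd68, Lyz2 and Emr1, the last now named Adgre1. They were chosen by name as general markers of these cells, with earlier results of these data known. They are 9 of the 15846 genes in the count table. All 9 are annotated as protein coding. With all 12 libraries, all 9 passed the filter on low counts that left 14736 genes for testing. The livers came from C57BL/6 mice aged 5 months, 3 in each of 4 groups and 12 in all. In order they were hepatocyte Shp knockouts (Shp Hep-/-, here KO) fed the diet labelled HFCF, KO mice fed chow, wild-type (WT) mice fed HFCF and WT mice fed chow. The Cre line or other means of deletion, the HFCF recipe, the length of feeding and the sex of the mice are not given in the sources used here. Each library was made from the RNA of liver tissue as a whole, so for a marker at a higher level, more cells and more RNA per cell cannot be told apart.

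Monocytes need the chemokine receptor Ccr2 to leave the bone marrow in number, enter tissues and can mature into macrophages, and the liver also holds its own resident macrophages, the Kupffer cells. Classical monocytes carry the surface protein Ly6C and much Ccr2, patrolling monocytes carry more of the fractalkine receptor Cx3cr1, and monocytes and macrophages depend in differing degree on signals through the receptor Csf1r. Itgam (CD11b), the lysosomal protein Cd68, lysozyme 2, the pore-forming protein Mpeg1 and the surface receptor F4/80, encoded by Emr1, are shared in differing amounts by monocytes, macrophages and some other myeloid cells. Shp (gene Nr0b2) is an orphan nuclear receptor that represses transcription and is best known in hepatocytes for restraining bile acid synthesis.

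Promoter sequence from RefSeq (GRCm38.p6) was matched by symbol for 7 of the 9 genes. It was searched on both strands for 4 motifs of factors that act in myeloid cells: GAGGAAG, a PU.1-like motif; TTGCNNAA, C/EBP-like; TGANTCA, AP-1-like; and an ISRE-like motif of interferon response elements. Of the 7 promoters, 3 held a match, and the 160 bases before the start are shown for them, 5′ to 3′ on the strand of the gene, with the matches in capitals. They are shown because they held a match, and a link between the matches and the levels of these genes was not tested. The Itgam stretch is chr7:128062480-128062639 on the plus strand, the Cd68 stretch chr11:69666171-69666330 on the minus strand and the Ly6c2 stretch, at the first of 2 listed starts, chr15:75111972-75112131 on the minus strand.
Itgam: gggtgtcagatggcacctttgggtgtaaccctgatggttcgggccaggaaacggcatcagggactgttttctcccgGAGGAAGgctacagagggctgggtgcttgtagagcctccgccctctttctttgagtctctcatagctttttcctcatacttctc
Cd68: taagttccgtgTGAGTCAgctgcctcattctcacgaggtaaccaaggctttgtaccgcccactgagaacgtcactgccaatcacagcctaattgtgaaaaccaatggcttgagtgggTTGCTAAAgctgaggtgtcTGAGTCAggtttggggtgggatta
Ly6c2: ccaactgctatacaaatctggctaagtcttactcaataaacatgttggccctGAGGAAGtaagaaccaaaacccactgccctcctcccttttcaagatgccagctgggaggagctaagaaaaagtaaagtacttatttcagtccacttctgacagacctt
The GAGGAAG match began 84 bases before the start of Itgam and 108 bases before that of Ly6c2, whose second listed start had it at 142 and 8 bases. Cd68 held TGANTCA at 149 and 24 bases before its start and TTGCNNAA at 43, with no overlap among them. GAGGAAG stood in 10.6% of the 32851 promoters in the RefSeq table, TTGCNNAA in 9.56%, TGANTCA in 6.75% and the ISRE-like motif in 2.98%. The share of all promoters holding any of the 4 motifs was not counted, so the 3 of 7 has no like share beside it. A match is a run of letters and no evidence of binding.

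Libraries held 13967116 to 18324134 counts. CPM below stands for counts relative to the TMM-scaled library size, and a log2 fold change is followed by its standard error. Tests came from edgeR's quasi-likelihood method fitted to all 12 livers, with p adjusted by Benjamini and Hochberg across every tested gene, and a gene was called where the adjusted p was under 0.05. Nothing in the labels says more than that replicates were separate livers, so p-values measure the spread between these samples. The targeted gene, Nr0b2, stood at 0.509, 0.21 and 0.394 CPM in KO HFCF livers, against 47.6, 49.6 and 53.4 CPM in WT HFCF livers. On chow it stood at 0.775, 0.552 and 1.01 CPM in KO livers, against 49.3, 22.4 and 31.0 CPM in WT livers. As a check of the tissue, 8 hepatocyte marker genes summed to 41404 to 57122 CPM in every library. One liver stood apart. WT HFCF replicate 1 differed from replicates 2 and 3 of its group with chi-square values of 35.2 and 37.8 per degree of freedom over genes, where all other pairs within a group lay between 12.2 and 21.8. It was also the highest of its group for 8 of the 9 markers, with a summed marker level of 425 CPM, against 255 and 212 CPM in the other WT HFCF livers. The main results on WT HFCF livers are therefore also given without it. Because it was the highest for 8 of the 9 markers, leaving it out by itself raises most KO over WT values on HFCF. Leaving it out likewise lowers most HFCF over chow values in WT. Such fits show how far the values rest on 1 liver and are no separate support.

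Per gene length, the markers spanned a wide range of levels. Over the 12 livers the order of mean FPKM was Lyz2 at 64.9, Mpeg1 at 32.2, Csf1r at 17.9, Emr1 at 11.5, Cd68 at 7.39, Ly6c2 at 2.02, Ccr2 at 1.16, Cx3cr1 at 0.509 and Itgam at 0.442. TMM-scaled counts per kilobase gave the same order. Neighbours in that order were separated in KO livers, where on either diet the ranges over 3 livers overlapped only for Cx3cr1 and Itgam. WT livers were less clearly ordered. On HFCF the ranges of Lyz2 and Mpeg1, Mpeg1 and Csf1r, and Csf1r and Emr1 overlapped in WT, as did those of the neighbours among the 4 lowest genes. On chow, Mpeg1 and Csf1r and the neighbours among the 4 lowest genes overlapped in WT. Ly6c2 ranked sixth of 9 by group mean in both KO groups and eighth of 9 in both WT groups.

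**Figure D1:**
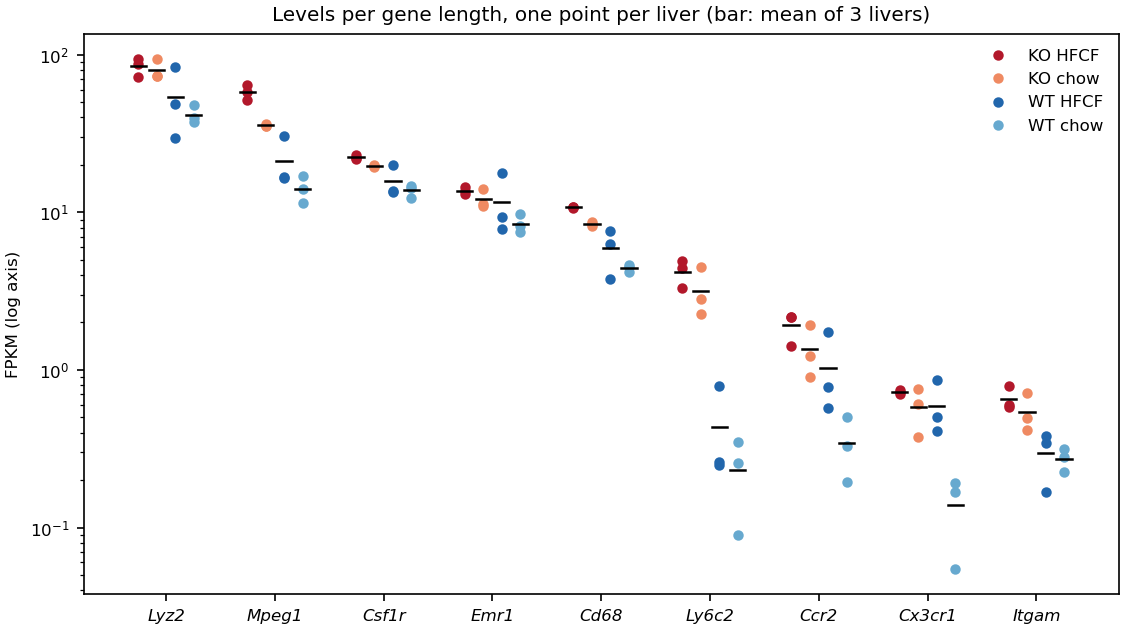
FPKM on a log axis for each of the 9 markers, ordered by mean level, with 1 point per liver, colours for the 4 groups and a bar for the mean of 3 livers. Lyz2 averaged 64.9 FPKM over all 12 livers and Itgam 0.442; the widest separation of KO from WT points is at Ly6c2.

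In KO livers most of the markers were higher than in WT livers, on both diets. On chow, all 9 had every KO liver above every WT liver, which held for 19.4% of all tested genes, and edgeR called 7 of the 9 up and none down, where 9.72% of tested genes were called up. On HFCF, 5 of the 9 had every KO liver above every WT liver (18.5% of tested genes) and the same 5, Ly6c2, Itgam, Csf1r, Mpeg1 and Cd68, were called up, with none down (10.6% of tested genes up). The median log2 fold change of the 9 was 0.93 on chow, beside 0.00 for all tested genes, and 0.92 on HFCF, beside 0.02. Without WT HFCF replicate 1, 8 of the 9 were called up on HFCF, where 10.6% of tested genes were called up, and all 9 had every KO liver above both remaining WT livers, where 24.7% of tested genes did. That liver was left out partly for its high marker levels, so these shares of all tested genes are not a like comparison. The summed level of the 9 was 593, 603 and 529 CPM in KO HFCF livers, against 425, 255 and 212 CPM in WT HFCF livers, and 405, 415 and 438 CPM in KO chow livers, against 246, 240 and 199 CPM in WT chow livers.

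**Figure D2:**
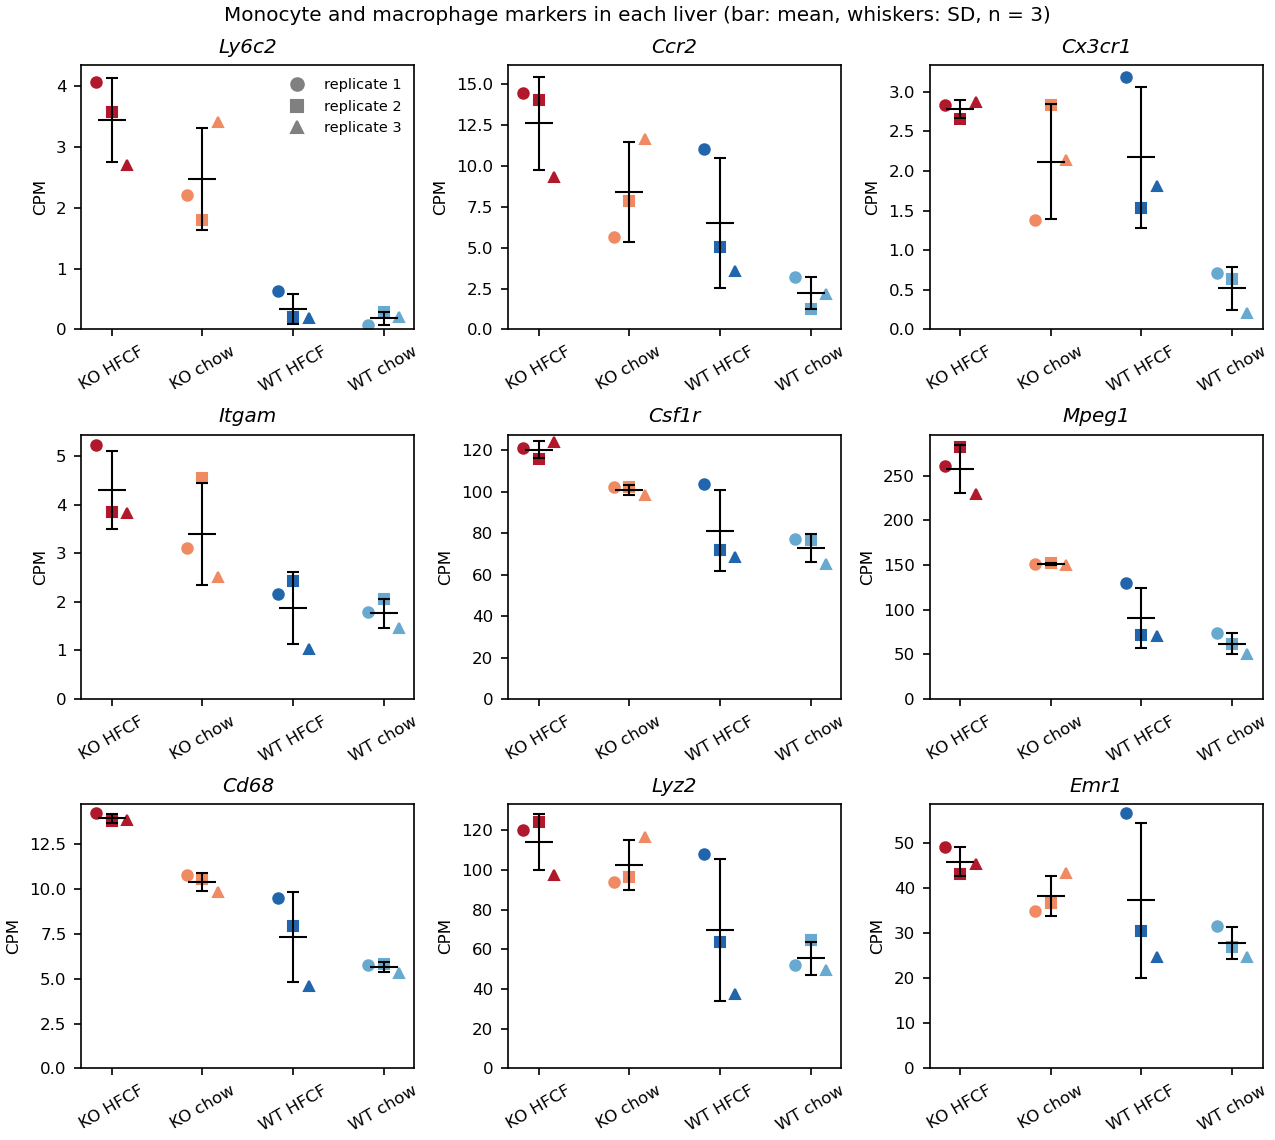
CPM in each liver for the 9 markers, 1 panel per gene, with groups in the order KO HFCF, KO chow, WT HFCF and WT chow, marker shapes for the replicate number, bars for the mean and whiskers for the SD of 3 livers. On chow every KO liver lies above every WT liver in all 9 panels, and WT HFCF replicate 1 lies above the other livers of its group in 8 of them.

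Of the monocyte markers, Ly6c2 (ENSMUSG00000022584, mm10 chr15:75108160-75111684, minus strand) had the largest genotype fold change of all 9 on both diets. It encodes the Ly6C2 antigen that marks classical monocytes in mice. Its counts were 56, 51 and 48 in KO HFCF livers, against 11, 3 and 3 in WT HFCF livers, and 40, 26 and 54 in KO chow livers, against 1, 4 and 3 in WT chow livers. In CPM these were 4.07, 3.57 and 2.70 in KO HFCF, against 0.625, 0.209 and 0.193 in WT HFCF, and 2.21, 1.79 and 3.40 in KO chow, against 0.0715, 0.283 and 0.207 in WT chow. No KO liver overlapped any WT liver. Ly6c2 passed the filter on low counts only through the KO livers, where it was high. In a fit of the WT groups alone 8 of the 9 markers passed, and Ly6c2 did not. The log2 fold change of KO over WT was 3.66 ± 0.48 on chow (adjusted p = 0.000322 by edgeR) and 3.24 ± 0.40 on HFCF (adjusted p = 0.000115). Without WT HFCF replicate 1, which held 11 of the 17 counts of its group, it was 4.03 ± 0.46 on HFCF (adjusted p = 7.15e-05). Part of the Ly6c2 sequence is shared with its neighbour: of the 50-base windows of its GENCODE vM21 transcripts, 13.9% also occur in Ly6c1, an endothelial gene not analysed here. How such reads were counted is not given in the sources used here.

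Ccr2 (ENSMUSG00000049103, chr9:124101950-124113557, plus strand), the receptor by which classical monocytes follow Ccl2 into tissue, had the widest relative spread of the 9 among KO livers, with a coefficient of variation of 22.5% on HFCF and 36.2% on chow. It stood at 14.5, 14.0 and 9.34 CPM in KO HFCF livers, against 11.0, 5.01 and 3.54 CPM in WT HFCF livers. On chow it stood at 5.65, 7.87 and 11.7 CPM in KO livers, against 3.22, 1.27 and 2.14 CPM in WT livers. The groups were separate on chow, and on HFCF WT replicate 1 reached into the KO range. Ccr2 rose in KO livers on chow, with a log2 fold change of 1.92 ± 0.44 (adjusted p = 0.0103 by edgeR). On HFCF the value was 0.92 ± 0.37 and did not pass the threshold (adjusted p = 0.0969), but without WT HFCF replicate 1 it was 1.55 ± 0.33 and did (adjusted p = 0.00566).

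Cx3cr1 (ENSMUSG00000052336, chr9:120048693-120068282, minus strand), the receptor for the tethered chemokine Cx3cl1, rose in KO livers on chow, where WT levels were lowest. Its level was 1.38, 2.83 and 2.14 CPM in KO chow livers, against 0.715, 0.637 and 0.207 CPM in WT chow livers. On HFCF it was 2.83, 2.66 and 2.87 CPM in KO livers, against 3.18, 1.53 and 1.80 CPM in WT livers. The chow groups did not overlap, while on HFCF WT replicate 1 was the highest liver of all. The log2 fold change of KO over WT was 2.00 ± 0.42 on chow (adjusted p = 0.00718 by edgeR) and 0.34 ± 0.32 on HFCF (adjusted p = 0.509). Cx3cr1 remained uncalled on HFCF without WT HFCF replicate 1, at 0.74 ± 0.32 (adjusted p = 0.143).

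Itgam (ENSMUSG00000030786, chr7:128062640-128128160, plus strand) encodes the alpha chain of the complement receptor integrin CD11b/CD18, found on monocytes, neutrophils and recruited macrophages. It stood at 5.23, 3.85 and 3.83 CPM in KO HFCF livers, against 2.16, 2.43 and 1.03 CPM in WT HFCF livers. On chow its level was 3.10, 4.55 and 2.52 CPM in KO livers, against 1.79, 2.05 and 1.45 CPM in WT livers. Every KO liver was above every WT liver. It rose on HFCF by a log2 of 1.19 ± 0.29 (adjusted p = 0.0106 by edgeR). On chow the log2 fold change was 0.93 ± 0.30 and just missed the threshold (adjusted p = 0.0517), which it passed without KO chow replicate 3 (adjusted p = 0.0409), with DESeq2 (adjusted p = 0.035), with upper quartile scaling (adjusted p = 0.0494) and in a fit of the chow groups alone (adjusted p = 0.0378). In GENCODE vM21, 68.7% of its exon bases are shared with Gm49368 on the same strand, a gene not analysed here, and reads there could have been left out or split.

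Csf1r (ENSMUSG00000024621, chr18:61105572-61132149, plus strand), the receptor for the growth factors Csf1 and Il34 on which monocytes and macrophages depend, rose on both diets, with the smallest fold change of the called markers on each. It stood at 121, 116 and 124 CPM in KO HFCF livers, against 103, 71.9 and 68.2 CPM in WT HFCF livers. On chow it stood at 102, 102 and 98.2 CPM in KO livers, against 77.2, 76.5 and 65.1 CPM in WT livers. The groups did not overlap on either diet. The log2 fold change of KO over WT was 0.56 ± 0.13 on HFCF (adjusted p = 0.00665 by edgeR) and 0.47 ± 0.13 on chow (adjusted p = 0.0242). The chow call was lost without WT chow replicate 3 (adjusted p = 0.112), KO chow replicate 1 (0.0632) or KO chow replicate 2 (0.0653). Csf1r shares 873 exon bases with Hmgxb3 on the opposite strand, and the strand setting of the counting is not given in the sources used here. Hmgxb3 was not called in either genotype comparison, at log2 fold changes of -0.11 on HFCF and -0.05 on chow.

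Mpeg1 (ENSMUSG00000046805, chr19:12460779-12465284, plus strand), which encodes perforin-2, a pore-forming protein that macrophages turn on engulfed bacteria, had the largest genotype fold change among the 4 most abundant markers. It stood at 261, 282 and 229 CPM in KO HFCF livers, against 130, 71.8 and 70.8 CPM in WT HFCF livers. On chow it stood at 151, 152 and 150 CPM in KO livers, against 73.5, 62.1 and 50.2 CPM in WT livers. Even WT HFCF replicate 1 stayed below all 6 KO livers. Mpeg1 rose in KO livers by a log2 of 1.50 ± 0.20 on HFCF (adjusted p = 0.000189 by edgeR) and 1.29 ± 0.20 on chow (adjusted p = 0.000957), and by 1.85 ± 0.14 on HFCF without WT HFCF replicate 1 (adjusted p = 2.24e-06).

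Cd68 (ENSMUSG00000018774, chr11:69664213-69666153, minus strand) encodes a heavily glycosylated protein of the lysosomal membrane. Its level was 14.2, 13.8 and 13.8 CPM in KO HFCF livers, against 9.49, 7.93 and 4.57 CPM in WT HFCF livers, and 10.8, 10.6 and 9.83 CPM in KO chow livers, against 5.79, 5.80 and 5.32 CPM in WT chow livers. All 6 KO livers were above all 6 WT livers. Cd68 rose by a log2 of 0.92 ± 0.18 on HFCF (adjusted p = 0.00331 by edgeR) and 0.88 ± 0.19 on chow (adjusted p = 0.00843), and no fit that left out 1 liver lost either call.

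Lyz2 (ENSMUSG00000069516, chr10:117277334-117282321, minus strand), the bacteria-degrading lysozyme of macrophages and neutrophils, varied more between WT HFCF livers than between those of any other group. It stood at 120, 124 and 97.6 CPM in KO HFCF livers, against 108, 63.7 and 37.4 CPM in WT HFCF livers. On chow it stood at 94.0, 96.1 and 117 CPM in KO livers, against 51.9, 64.6 and 49.6 CPM in WT livers. Lyz2 rose on chow, by a log2 of 0.89 ± 0.26 (adjusted p = 0.0371 by edgeR), but this call was lost without any 1 of the 6 chow livers (adjusted p = 0.0528 to 0.129) and with DESeq2 (adjusted p = 0.0502). On HFCF its groups overlapped through WT replicate 1, and the log2 fold change of 0.71 ± 0.26 did not pass (adjusted p = 0.0763), while without that liver it was 1.17 ± 0.19 (adjusted p = 0.000976). With limma voom it also passed on HFCF (adjusted p = 0.0409). Of the 50-base windows of its transcripts, 15.4% also occur in Lyz1, which was not analysed here.

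Emr1 (ENSMUSG00000004730, chr17:57358686-57483529, plus strand), which encodes the F4/80 adhesion receptor that is strong on Kupffer cells, had the smallest genotype fold change of the 9 on chow, and on HFCF with all livers included. It stood at 49.2, 43.0 and 45.4 CPM in KO HFCF livers, against 56.7, 30.4 and 24.6 CPM in WT HFCF livers. On chow its level was 35.0, 36.6 and 43.3 CPM in KO livers, against 31.7, 27.0 and 24.8 CPM in WT livers. The chow groups did not overlap, and on HFCF WT replicate 1 was above all KO livers. The log2 fold change was 0.46 ± 0.23 on chow (adjusted p = 0.191 by edgeR) and 0.29 ± 0.22 on HFCF (adjusted p = 0.406), neither of which passed. A fit of the chow groups alone called Emr1 up on chow (adjusted p = 0.0237). Leaving out WT HFCF replicate 1 gave 0.74 ± 0.13 on HFCF, which passed (adjusted p = 0.00141), beside 0.74 ± 0.32 for Cx3cr1.

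With both diets averaged, KO over WT, edgeR called 8 of the 9 up, where 16.8% of tested genes were called up, and Emr1 was not called at 0.38 ± 0.16 (adjusted p = 0.0903). For Ly6c2, Itgam, Mpeg1 and Cd68 all 6 KO livers stood above all 6 WT livers, as they did for 5.67% of tested genes. Leaving out WT HFCF replicate 1 added Emr1 to the calls, with 16.9% of tested genes then called up.

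**Figure D3:**
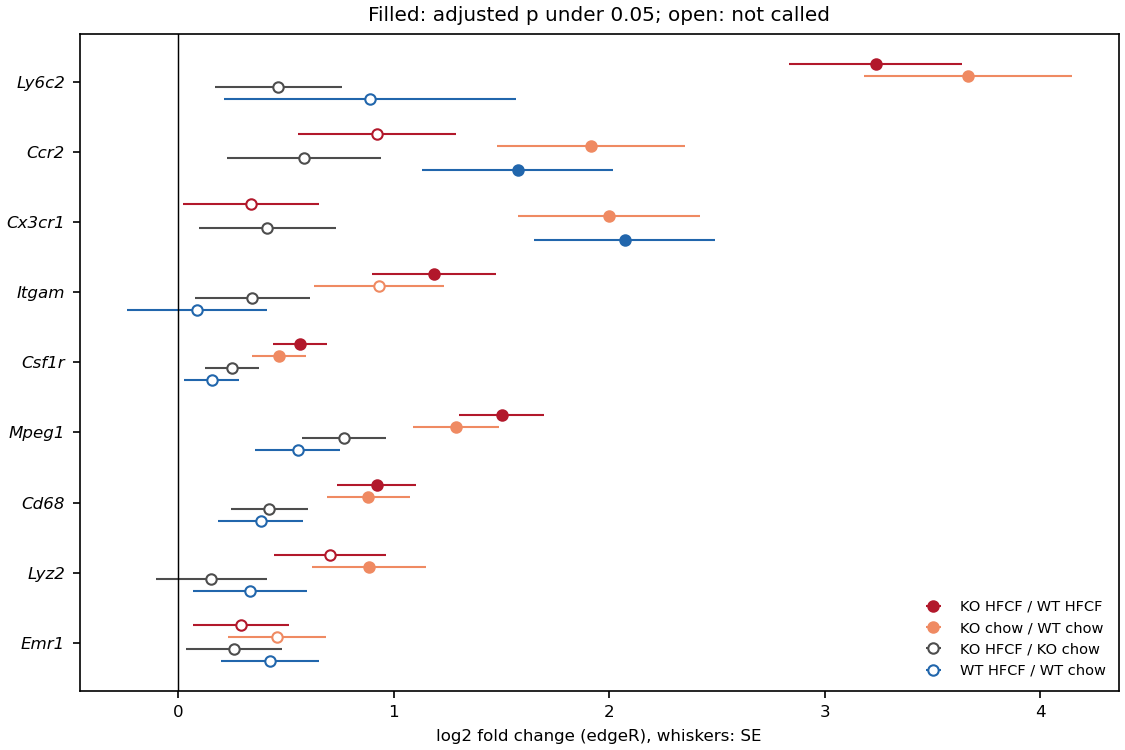
Log2 fold changes from edgeR with SE whiskers for the 9 markers, in the order KO over WT on HFCF, KO over WT on chow, HFCF over chow in KO and HFCF over chow in WT; filled points had an adjusted p under 0.05. Ly6c2 stands far right in both genotype comparisons, at 3.24 and 3.66, and only Ccr2 and Cx3cr1 have a filled diet point, both in WT.

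WT livers on HFCF had higher levels of both chemokine receptors than WT livers on chow. Of the 9 markers edgeR called 2 up and none down for HFCF over chow in WT, where 7.76% of tested genes were called up. These were Cx3cr1, at 3.18, 1.53 and 1.80 CPM in WT HFCF livers, against 0.715, 0.637 and 0.207 CPM in WT chow livers, and Ccr2, at 11.0, 5.01 and 3.54 CPM in WT HFCF livers, against 3.22, 1.27 and 2.14 CPM in WT chow livers. The WT chow livers are also the baseline of the genotype comparison on chow. Both had every HFCF liver above every chow liver, as did 15.8% of tested genes. Cx3cr1 rose by a log2 of 2.07 ± 0.42 (adjusted p = 0.00595 by edgeR) and Ccr2 by 1.58 ± 0.44 (adjusted p = 0.0312). The other 7 log2 fold changes lay between 0.09 for Itgam and 0.89 for Ly6c2, with Mpeg1 at 0.56 ± 0.20 (adjusted p = 0.0812, or 0.0298 with DESeq2). The Ly6c2 value rests on 17 counts over the WT HFCF livers and 8 over the WT chow livers. The median of the 9 was 0.43, beside 0.00 for all tested genes.

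These WT diet values rested in part on 1 liver. Without WT HFCF replicate 1 only Cx3cr1 was called, at 1.68 ± 0.42 (adjusted p = 0.0255 by edgeR), where 5.07% of tested genes were called up; the median was 0.09 and 5 of the 9 values were above 0. The Ccr2 value was then 0.94 ± 0.39 (adjusted p = 0.168), and its call was also lost without WT chow replicate 2 (adjusted p = 0.107) or WT chow replicate 3 (0.0964), with limma voom (0.0771) and with the WT groups alone (0.0579). In the other direction, leaving out WT HFCF replicate 3, the liver with the lowest summed marker level of its group, gave 6 calls, adding Mpeg1, Cd68, Lyz2 and Emr1, and leaving out WT HFCF replicate 2 gave 3, adding Mpeg1.

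**Figure D4:**
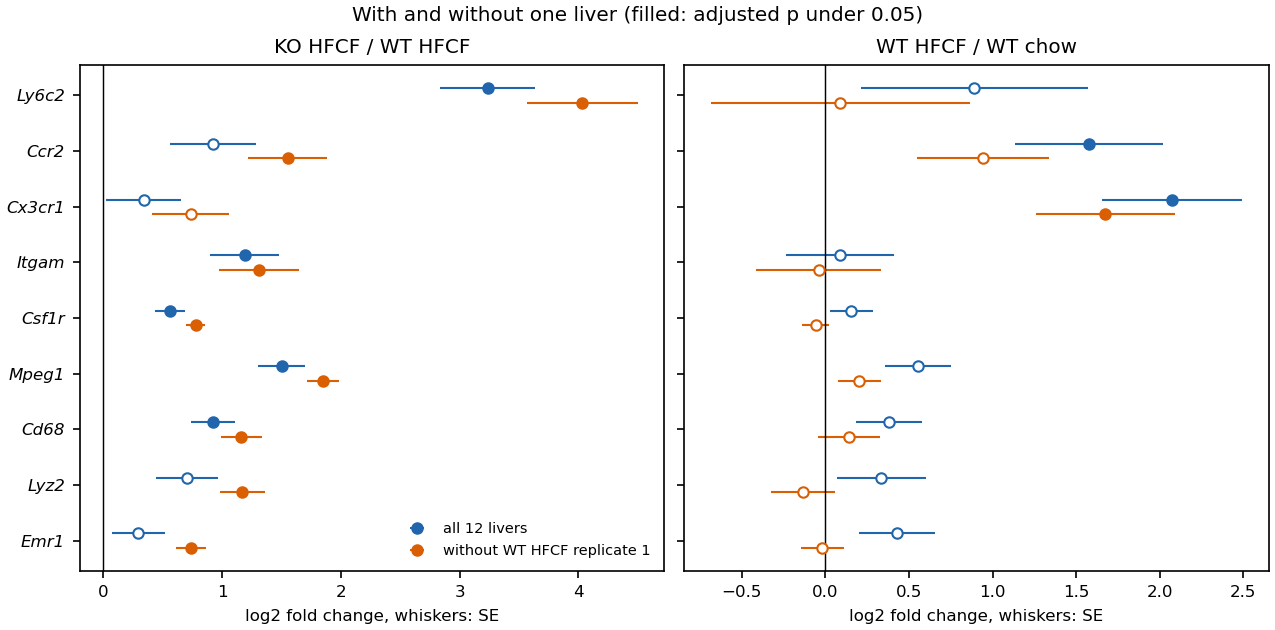
Log2 fold changes with SE whiskers for the 9 markers from all 12 livers and without WT HFCF replicate 1, for KO over WT on HFCF (left) and HFCF over chow in WT (right); filled points had an adjusted p under 0.05. Without that liver every value moves right on the left panel, with 8 filled in place of 5, and left on the right panel, with 1 filled in place of 2.

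In KO livers edgeR called none of the 9 for HFCF over chow, where 1.47% of tested genes were called up. At an unadjusted p under 0.05 there were 2 (Mpeg1 and Cd68), and DESeq2 and limma voom each called 1, Mpeg1. Mpeg1 was at 261, 282 and 229 CPM in KO HFCF livers, against 151, 152 and 150 CPM in KO chow livers, a log2 fold change of 0.77 ± 0.19 (adjusted p = 0.0531 by edgeR). With DESeq2 its adjusted p was 0.00284. Mpeg1, Cd68 and Csf1r had every HFCF liver above every chow liver in KO, as did 13.1% of tested genes, and all 9 values were above 0, from 0.15 for Lyz2 to the 0.77 of Mpeg1. The median was 0.41, beside 0.00 for all tested genes. A fit of the KO groups alone called Mpeg1 (adjusted p = 0.00189) and Cd68 (adjusted p = 0.0416).

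Averaged over the genotypes, HFCF over chow, edgeR called 3 markers up, where 9.43% of tested genes were called up. Cx3cr1 stood at 1.24 ± 0.27 (adjusted p = 0.0064), Ccr2 at 1.08 ± 0.29 (adjusted p = 0.0198) and Mpeg1 at 0.66 ± 0.14 (adjusted p = 0.00582). Cd68 stood at 0.40 ± 0.13 (adjusted p = 0.0523) and passed with DESeq2 (adjusted p = 0.0289). None of the 9 had all 6 HFCF livers above all 6 chow livers, which 2.08% of tested genes did. The count was 2 without WT chow replicate 2, 7 without WT HFCF replicate 3 and 3 without any other liver.

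The difference between the genotype effects on the diets was tested as an interaction, and edgeR called none of the 9, where 0.794% of tested genes were called in either direction. DESeq2 and limma voom also called none. At an unadjusted p under 0.05 there was 1, Cx3cr1, with a log2 interaction of -1.66 ± 0.54 (adjusted p = 0.189), a negative value meaning a smaller KO over WT ratio on HFCF than on chow. Cx3cr1 averaged 2.79 ± 0.11 CPM in KO HFCF livers against 2.17 ± 0.89 CPM in WT HFCF livers, and 2.12 ± 0.72 CPM in KO chow livers against 0.520 ± 0.273 CPM in WT chow livers (SD, n = 3 each). The other 8 values lay between -0.99 for Ccr2 and 0.26 for Itgam, and the median of the 9 was -0.17. Without WT HFCF replicate 1 edgeR again called none, but 7 of the 9 values were above 0 and the median was 0.29. At an unadjusted p under 0.05 there were then 3 markers, Mpeg1 at 0.57 ± 0.17 (adjusted p = 0.167), Csf1r at 0.31 ± 0.11 (adjusted p = 0.236) and Cx3cr1 at -1.26 ± 0.50 (adjusted p = 0.297), and Ccr2 stood at -0.36 ± 0.48.

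The markers did not all differ by the same factor, which can be read from their FPKM ratio to Csf1r within each library. Mpeg1 stood at 2.59 ± 0.35 times Csf1r in KO HFCF livers against 1.32 ± 0.17 times in WT HFCF livers, and at 1.81 ± 0.04 times in KO chow livers against 1.02 ± 0.11 times in WT chow livers (SD, n = 3 each). The KO and WT ranges of this ratio did not overlap on either diet. Emr1 stood at 0.615 ± 0.034 and 0.613 ± 0.086 times Csf1r in KO livers on HFCF and chow, against 0.715 ± 0.154 and 0.615 ± 0.047 times in WT livers on these diets, with overlapping ranges. Ly6c2 stood at 0.189 ± 0.040 times Csf1r in KO HFCF livers against 0.0258 ± 0.0121 times in WT HFCF livers, and at 0.162 ± 0.059 times in KO chow livers against 0.0171 ± 0.0097 times in WT chow livers. The ratios are descriptions of unequal change within libraries and were not tested.

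Of the ligands of these receptors, 6 of 8 listed genes were analysed, and 5 of the 6 rose in KO livers on chow and 3 on HFCF, or 4 on HFCF without WT HFCF replicate 1. Here and for the lists that follow, 9.72% of all tested genes were called up on chow and 10.6% on HFCF. Without WT HFCF replicate 1 the share on HFCF was 10.6%. The chemokine Ccl2, the main ligand of Ccr2, stood at 2.76, 3.50 and 2.03 CPM in KO HFCF livers, against 1.82, 0.974 and 0.580 CPM in WT HFCF livers. On chow it stood at 2.88, 1.66 and 1.83 CPM in KO livers, against 0.143, 0.283 and 0.277 CPM in WT livers. The KO livers were above the WT livers on both diets, by a log2 of 3.15 ± 0.50 on chow (adjusted p = 0.00115 by edgeR) and 1.25 ± 0.36 on HFCF (adjusted p = 0.0252). Ccl2 was also the one ligand called for HFCF over chow in WT, at 2.25 ± 0.55 (adjusted p = 0.0167), a call that was lost without WT HFCF replicate 1.

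Ccl7, another Ccr2 ligand, had 34 counts over the 3 KO chow livers and 0 over the WT chow livers, so it was at least 9.96-fold higher against a floor of 3 counts over the WT chow group, a bound that covers counting error only. On HFCF it had 42 counts over KO livers and 10 over WT livers, with a log2 fold change of 2.10 ± 0.71 that did not pass (adjusted p = 0.0593 by edgeR). Csf1, the growth factor for Csf1r, rose by a log2 of 0.85 ± 0.14 on chow (adjusted p = 0.00181) and 0.61 ± 0.14 on HFCF (adjusted p = 0.0081). Il34, the other ligand of Csf1r, stood at 0.20 ± 0.32 on chow and -0.08 ± 0.31 on HFCF and was not called. Cx3cl1 rose on chow by 1.33 ± 0.32 (adjusted p = 0.0132) and stood at 0.33 ± 0.29 on HFCF (adjusted p = 0.508). Icam1, the endothelial and leukocyte adhesion molecule that CD11b binds, rose by 1.19 ± 0.17 on both diets (adjusted p = 0.000583 on chow and 0.000309 on HFCF).

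Other genes of the myeloid lineage rose in KO livers too. Of 27 tested receptors, adaptors, transcription factors and phagocyte genes, 18 rose on HFCF and 16 on chow, with medians of 0.77 and 0.76, and 23 rose on HFCF without WT HFCF replicate 1. Among them the scavenger receptor Msr1 stood at 0.98 ± 0.14 on HFCF and 0.91 ± 0.15 on chow, and Csf2rb, the shared chain of the receptors for GM-CSF, IL-3 and IL-5, at 1.35 ± 0.20 on HFCF and 1.55 ± 0.21 on chow. Of 12 tested other monocyte genes, 8 rose on HFCF, or 10 without WT HFCF replicate 1, and 7 on chow. Spn (CD43), which is high on patrolling monocytes and T cells, stood at 1.55 ± 0.29 on HFCF and 2.01 ± 0.32 on chow, and Chi3l3 (Ym1) at 3.60 ± 0.52 on HFCF. On the same list Nr4a1 had lower means in KO livers, at 2.54 ± 1.50 CPM against 9.04 ± 6.63 CPM in WT livers on HFCF. On chow Nr4a1 stood at 2.78 ± 2.45 CPM in KO livers against 3.14 ± 2.07 CPM in WT livers (SD, n = 3 each). Ifitm6 averaged 0.225 CPM in KO chow livers against 0.303 CPM in WT chow livers, and 0.520 against 0.221 CPM on HFCF. The summed level of this list was 58.3 to 72.0 CPM in KO HFCF livers, against 17.7 to 55.0 CPM in WT HFCF livers, and 37.5 to 46.0 CPM in KO chow livers, against 17.98 to 20.5 CPM in WT chow livers.

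Markers of particular macrophage states and of neutrophils were set beside the 9 genes. Of 12 Kupffer cell markers, 8 rose on HFCF and 3 on chow, and 10 rose on HFCF without WT HFCF replicate 1. Their summed level was 1069 to 1122 CPM in KO HFCF livers, against 604 to 806 CPM in WT HFCF livers, and 927 to 940 CPM in KO chow livers, against 640 to 702 CPM in WT chow livers. The largest part of these sums came from C6, which averaged 317 CPM in KO and 179 CPM in WT livers on HFCF. On chow C6 averaged 365 CPM in KO and 236 CPM in WT livers, so the sums rest in good part on this gene. Of 12 lipid-associated macrophage markers, 5 rose on HFCF (8 without WT HFCF replicate 1) and 9 on chow, at summed levels of 675 to 775 CPM in KO HFCF livers, against 547 to 844 CPM in WT HFCF livers, and 692 to 705 CPM in KO chow livers, against 525 to 572 CPM in WT chow livers. Most of these sums came from Ctsd, which averaged 512 CPM in KO and 530 CPM in WT livers on HFCF. On chow Ctsd averaged 506 CPM in KO and 483 CPM in WT livers. The sums therefore say little of the less abundant markers on this list. Of 3 tested neutrophil markers 1 rose on each diet, S100a9 on HFCF at 1.51 ± 0.30 and Csf3r on chow at 1.00 ± 0.23, and 2 of the 3 rose on HFCF without WT HFCF replicate 1. The summed level of the 4 analysed neutrophil genes was 5.59 to 6.69 CPM in KO HFCF livers, against 2.13 to 4.21 CPM in WT HFCF livers, and 5.26 to 7.11 CPM in KO chow livers, against 2.76 to 4.005 CPM in WT chow livers. All 6 KO livers were above all 6 WT livers in this sum, and neutrophils also carry Itgam and Lyz2; the part of neutrophils in the levels of these markers was not tested.

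Markers of other leukocytes also rose in part. Of 7 tested T and NK cell markers all 7 rose on HFCF and 4 on chow, at summed levels of 9.06 to 14.8 CPM in KO HFCF livers, against 2.77 to 3.87 CPM in WT HFCF livers, and 6.69 to 12.7 CPM in KO chow livers, against 2.34 to 3.79 CPM in WT chow livers. Of 6 B and plasma cell markers 2 rose on HFCF and 6 on chow, at summed levels of 74.8 to 82.1 CPM in KO HFCF livers, against 5.80 to 10.3 CPM in WT HFCF livers, and 120.7 to 167 CPM in KO chow livers, against 6.23 to 10.2 CPM in WT chow livers. The joining-chain gene Igj of antibody-secreting cells stood at 6.34 ± 0.18 on HFCF and 6.42 ± 0.17 on chow. Of 8 tested dendritic cell markers 2 rose on HFCF and 5 on chow, at summed levels of 30.1 to 32.3 CPM in KO HFCF livers, against 21.4 to 27.5 CPM in WT HFCF livers, and 30.2 to 31.9 CPM in KO chow livers, against 20.0 to 22.1 CPM in WT chow livers. All 6 pan-leukocyte genes rose on HFCF and 5 on chow, among them Ptprc (CD45) at 1.12 ± 0.20 on HFCF and 1.08 ± 0.20 on chow. Without WT HFCF replicate 1, the numbers that rose on HFCF were 6 of 9 T and NK cell, 2 of 6 B and plasma cell, 3 of 8 dendritic cell and 6 of 6 pan-leukocyte genes. No listed marker gene was at 0 in all 3 livers of a group other than Ccl7. The part of these cells in the levels of the 9 markers was not tested.

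Non-immune lists also held genes that edgeR called, where 9.72% of all tested genes were called up on chow and 10.6% on HFCF. In lists of 5 or 8 genes, 1 call says little beside these shares. On chow 3 of 8 stellate cell markers rose, at summed levels of 762 to 780 CPM in KO chow livers, against 556 to 678 CPM in WT chow livers, while on HFCF the sums overlapped, at 656 to 867 CPM in KO livers and 746 to 872 CPM in WT livers. On chow 1 of 5 cholangiocyte markers rose, at summed levels of 57.7 to 95.3 CPM in KO chow livers, against 30.2 to 45.0 CPM in WT chow livers, and on HFCF these sums overlapped too, at 49.2 to 71.3 CPM in KO livers and 50.3 to 94.3 CPM in WT livers. The chow sums of both lists did not overlap between genotypes. The cholangiocyte marker that rose was Spp1, which is also on the lipid-associated macrophage list. Spp1 made up most of the cholangiocyte sum, at 51.0, 90.3 and 75.7 CPM in KO chow livers, against 27.6, 32.9 and 41.2 CPM in WT chow livers. Krt19, Krt7, Epcam and Sox9 were not called on either diet. Averaged over the diets, Sox9 was called up at 1.02 ± 0.26 (adjusted p = 0.00893 by edgeR), where 16.8% of tested genes were. Krt19, Krt7, Epcam and Spp1 were not called in that comparison.

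Of 8 endothelial markers Clec4g rose and Lyve1 fell on HFCF, and without WT HFCF replicate 1 the fall was no longer called and 1 marker rose. With or without that liver, 10.6% of all tested genes were called up on HFCF. Their medians were -0.06 on HFCF and 0.05 on chow, and their summed levels were 520.2 to 565 CPM in KO HFCF livers, against 514 to 585 CPM in WT HFCF livers, and 549.5 to 584 CPM in KO chow livers, against 519 to 536 CPM in WT chow livers. Of 8 hepatocyte markers 2 rose and 1 fell on HFCF, but without WT HFCF replicate 1 neither rise was called and 1 marker fell. On chow 2 hepatocyte markers fell. The hepatocyte medians were 0.28 on HFCF and -0.21 on chow, and the summed levels were 51011 to 52167 CPM in KO HFCF livers, against 41404 to 46893 CPM in WT HFCF livers, and 48730 to 57122 CPM in KO chow livers, against 53141 to 53995 CPM in WT chow livers. How far these cells contribute to the levels of the 9 markers was not tested.

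**Figure D5:**
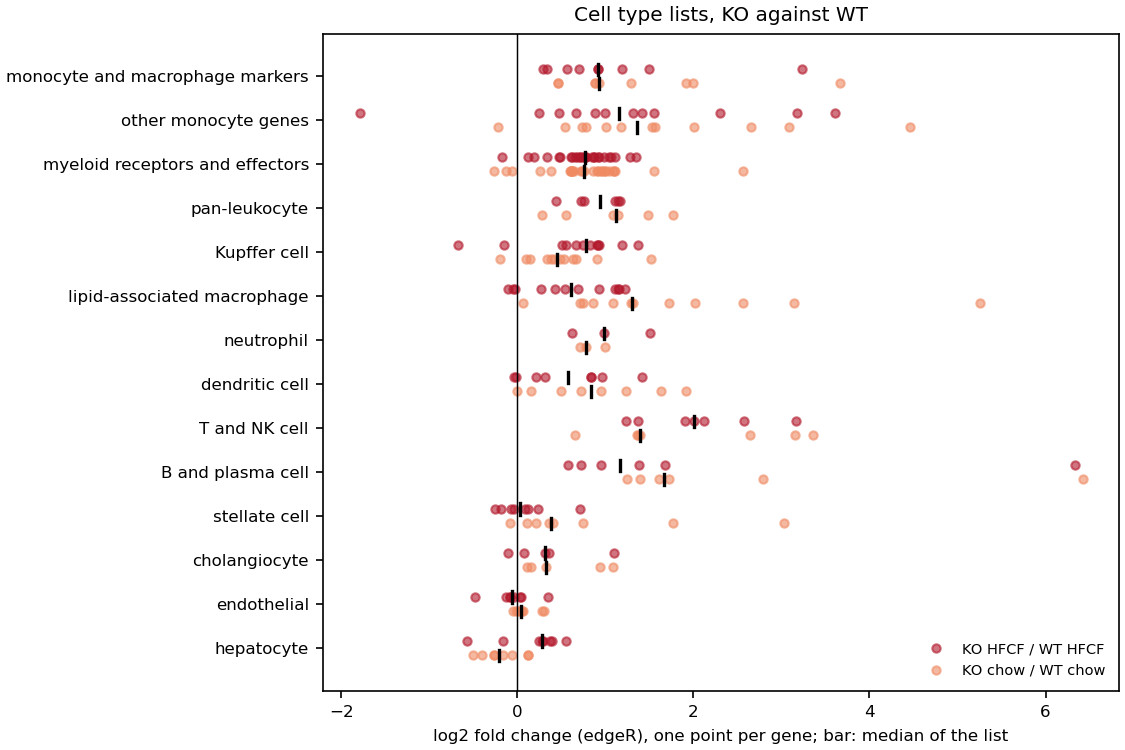
Log2 fold changes of KO over WT on HFCF and on chow for each tested gene of the 9 markers and of the cell type lists, with a bar for the median of each list. The medians of the 9 markers lie at 0.92 on HFCF and 0.93 on chow, and those of the endothelial list at -0.06 and 0.05.

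The levels of the 9 markers varied together from liver to liver. Over the 12 livers, Pearson's r between pairs of markers on log2(CPM + 1) ranged from 0.629 to 0.968 over 36 pairs, with a median of 0.852. The highest was between Csf1r and Mpeg1. With the group means taken out the range was -0.07 to 0.901 with a median of 0.622, and 35 of 36 pairs were above 0. Livers of one group share genotype, diet and any common handling, so these values are descriptions.

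Among 12646 other genes, those whose levels over the 12 livers were most like the mean profile of the 9 markers were Cyth4 (r = 0.993), C1qb (0.985), Ncf1 (0.985), Itgb2 (0.985), Nckap1l (0.984), Cyba (0.983), Myo1g (0.982), Cybb (0.982), Soat1 (0.981) and Clec12a (0.980). The median r over all compared genes was 0.00 and the 95th percentile 0.854. Itgb2 encodes CD18, the beta chain that pairs with the Itgam product, and C1qb a chain of complement C1q. With group means taken out, 2 of these 10, Cyth4 and Itgb2, were among the 10 most alike.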

How the data were processed

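RNA-seq from 12 livers, 3 per group, was analysed; the sample labels gave groups and replicate numbers. The authors deposited a table of read counts (whole numbers, by Ensembl gene) and FPKM values, per the file headers. For genes with more than 100 counts in a library, FPKM matched the count over gene length and a library total (100% of these values within 0.1%). Ly6c2, Cx3cr1 and Itgam, with at most 72 counts in any library, were outside this check. FPKM served only to compare genes. Per the labels' protocols, the library kit was stranded and removed ribosomal RNA. The submitters' processing notes name the build mm10; aligner, counter and strand setting are not given in the sources used here.

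Filtering with filterByExpr (minimum count 10, minimum total 15) left 14736 genes and removed 1110. After TMM scaling, edgeR 4.0.16 in R 4.3.3 fitted 4 group means by quasi-likelihood (glmQLFit, glmQLFTest), and calls were made where the Benjamini-Hochberg adjusted p was under 0.05. The pipeline was tested on simulated counts. Likeness used Pearson's r on log2(CPM + 1). Figures used pandas 2.3.3 and matplotlib 3.10.9 under Python 3.11.15.

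The members and lists were chosen with earlier results of these data known. Named were all members, every tested ligand, up to 3 genes with the lowest adjusted p in a contrast from each other list, and the 10 genes most like the members; printed list examples were picked from these after their values were seen. As alternatives, scaling was by RLE or upper quartile, the filter was dropped or set to a minimum count of 50, the replicate number was a block, the tool was DESeq2 1.42.0 or limma 3.58.1 voom, only the compared groups were fitted, and each library was left out. List and overlap counts without WT HFCF replicate 1 were chosen after seeing the data.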

Additional observations from a re-analysis of the deposited data

How the results depend on the processing

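Of 1009 values for single markers under the alternatives, 946 kept direction and side of the threshold, 16 lost a call, 33 gained one and 14 changed sign. Leaving out each liver in turn gave 5 to 7 calls for KO over WT on chow, 5 to 8 on HFCF and 8 to 9 averaged over diets, all up. For HFCF over chow it gave 1 to 6 in WT, 0 to 0 in KO and 2 to 7 averaged, and for the interaction 0 to 0. The WT diet count was 1 in place of 2 with a minimum count of 50, which dropped Cx3cr1, with limma voom, and with the compared groups alone. The KO diet count was 1 in place of 0 with DESeq2 and limma voom and 2 with the compared groups alone. Only 2 of the 10 most alike genes were kept with group means subtracted.

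Whether the replicate numbers pair the livers was not settled. The r of same-numbered deviations over 18 pairs was -0.20 to 0.229, with 5 above 0.1. Livers with different numbers were not compared in this way, so these values have no like values beside them. With the replicate block the KO diet count was 1 in place of 0, the WT diet count 3, and the genotype counts 8 on chow and 5 on HFCF. The marker added by the block in both diet comparisons was Mpeg1 (adjusted p = 0.0238 in KO and 0.0483 in WT by edgeR).

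All values that changed sign were uncalled and did so when 1 liver was left out. Over those fits the HFCF over chow value in WT ranged from -0.12 to 0.38 for Itgam, -0.058 to 0.27 for Csf1r, -0.13 to 0.63 for Lyz2 and -0.018 to 0.65 for Emr1. The lowest values came without WT HFCF replicate 2 for Itgam and without replicate 1 for the other 3. The interaction ranged from -0.84 to 0.37 for Ly6c2, -0.031 to 0.51 for Itgam, -0.014 to 0.31 for Csf1r, -0.21 to 0.28 for Cd68, -0.48 to 0.29 for Lyz2 and -0.39 to 0.28 for Emr1. The cause was not tested. Ly6c2, Cx3cr1 and Itgam had at most 72 counts in any library, and 3 livers a group limit every comparison.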
